A study of Mus musculus with 8 samples.

Results

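The Vcam1+ endothelial cells are the cells that the deposited table places in structural cluster 5, and they number 248 of 5514 structural cells and of 20778 cells in all. They were chosen by that cluster number alone. The cells came from left lung grafts of 8 mice, taken 1 month after orthotopic transplantation. Single cells were profiled on the 10x 3′ platform, with 10000 loaded from each graft. In the B6→B6 group (n = 5) a C57BL/6 (B6) lung was placed in a B6 mouse, and this syngeneic graft is not rejected. In the HLA→B6 group (n = 3) the lung came from an HLA donor, a mouse of B6 background that carries the human transgene Tg(HLA-A2.1)1Enge, and the graft develops bronchiolitis obliterans syndrome (BOS). All mice were male and none received immunosuppression. The model has 1 human class I mismatch on an otherwise shared background, and the grafts hold cells of the donor and of the recipient, which the deposited labels do not separate.

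Endothelial cells line blood and lymph vessels and differ along the vessel tree. In the lung, general capillary cells and aerocytes form the alveolar capillaries, whereas larger arteries and veins are lined by cells with other programs, many of which store von Willebrand factor. Venous endothelium is a usual site where leukocytes leave the blood, which it supports through adhesion molecules such as VCAM-1, and endothelial cells can present peptides on MHC class I and, after IFN-γ, on MHC class II.

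The B6→B6 mice 1 to 5 gave 27, 14, 23, 55 and 6 Vcam1+ endothelial cells, and the HLA→B6 mice 1 to 3 gave 88, 21 and 14. HLA→B6 mouse 1 therefore held more of them than any other mouse, and B6→B6 mouse 5 held too few to enter a comparison of levels, which took mice with at least 10 cells and so left 4 B6→B6 and 3 HLA→B6 mice. The median depth was 1356 unique molecular identifiers (UMIs, each 1 captured transcript) and 850.5 genes per cell, and 231 of the cells had at least 500 UMIs. The sums over a mouse's cells ran from 22172 to 139707 UMIs in the 7 mice. Scrublet marked 0 of the 248 cells as doublets. Of the 248, 9 carried a barcode found in another mouse as well, and 1 barcode lay in cluster 5 in B6→B6 mice 1 and 2 and in HLA→B6 mouse 2. B6→B6 mice 1 to 3 and HLA→B6 mouse 2 were joined by pairs that shared 8.75 to 64.6 times as many cell barcodes as random draws give, and are called the linked libraries here.

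Levels are CPM, the UMIs of a gene summed over the cluster 5 cells of a mouse and scaled so that all sums have the same total. Clusters were drawn from the same counts, so differences between clusters are described without a test. The working label of these cells names Lyve1, a hyaluronan receptor of lymphatic and some blood vessel endothelium (chr7:110850607-110863239, minus strand, GRCm38). Lyve1 stood at 1817, 1052, 1443 and 2075 CPM in B6→B6 mice 1 to 4 and at 2026, 2444 and 1173 CPM in the HLA→B6 mice. Both groups overlapped, and in the test across all genes the log2 fold change of HLA→B6 over B6→B6 was 0.30 (SE 0.27, adjusted p = 0.559). The mean over the 7 mice was 1718 CPM ± 513 (SD), against 1176 CPM in cluster 0 of the same mice, 814 CPM in cluster 1 and 318 CPM in cluster 2. Lyve1 was higher than in cluster 0 in 6 of 7 mice, higher than in cluster 1 in 6 of 7 and higher than in cluster 2 in 7 of 7. After thinning to 500 UMIs per cell, 58.3% of cluster 5 cells had a Lyve1 UMI, against 41.6% in cluster 0 and 26.2% in cluster 1. Lyve1 was thus most abundant in cluster 5 but shared with its neighbors at a ratio of 1.46 to cluster 0. Of 12 lymphatic list genes, Prox1 and Reln, defining genes of lymphatic endothelium, had 0 UMIs in cluster 5, as did Nts, Fxyd6 and Tbx1. Pdpn, Flt4, Ccl21a, Sema3d and Maf were not at 0, and Mmrn1 was, like Lyve1, highest in cluster 5 among the 4 clusters. The whole list averaged 1741 CPM, of which Lyve1 made 1718 CPM. In structural cluster 9, named Prox1+ endothelial cells, 12 of 32 cells (37.5%) had a Prox1 UMI. The absence of Prox1 and the low sum beyond Lyve1 went against a lymphatic reading of the label. The deposited name, Vcam1+ endothelial cells, is used for these cells.

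The genes with the largest ratios over clusters 0, 1 and 2 included Vcam1, Slc6a2 and Vwf. Vcam1, the adhesion molecule that binds the leukocyte integrin VLA-4 (chr3:116109949-116129688, minus strand), averaged 858 CPM ± 553 in cluster 5 and 8.6, 13.0 and 0 CPM in clusters 0, 1 and 2. Slc6a2, the noradrenaline transporter (chr8:92960079-93001667, plus strand), averaged 644 CPM ± 240, which was 59.0 times the highest of the 3 other clusters. Vwf, von Willebrand factor (chr6:125546774-125686679, plus strand), averaged 2261 CPM ± 725, or 19.2 times the highest. The cytokine-like gene Cytl1 (30.5 times), Amigo2 (18.1 times), Ch25h, which makes 25-hydroxycholesterol (15.1 times), the prostacyclin synthase gene Ptgis (13.2 times), the venous transcription factor Nr2f2 (12 times) and the elastic fiber gene Fbln5 (10.5 times) followed. Of 1791 genes with enough UMIs and a mean of 100 CPM or more in cluster 5, 46 were higher there than in clusters 0, 1 and 2 in every one of the 7 mice.

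**Figure D1:**
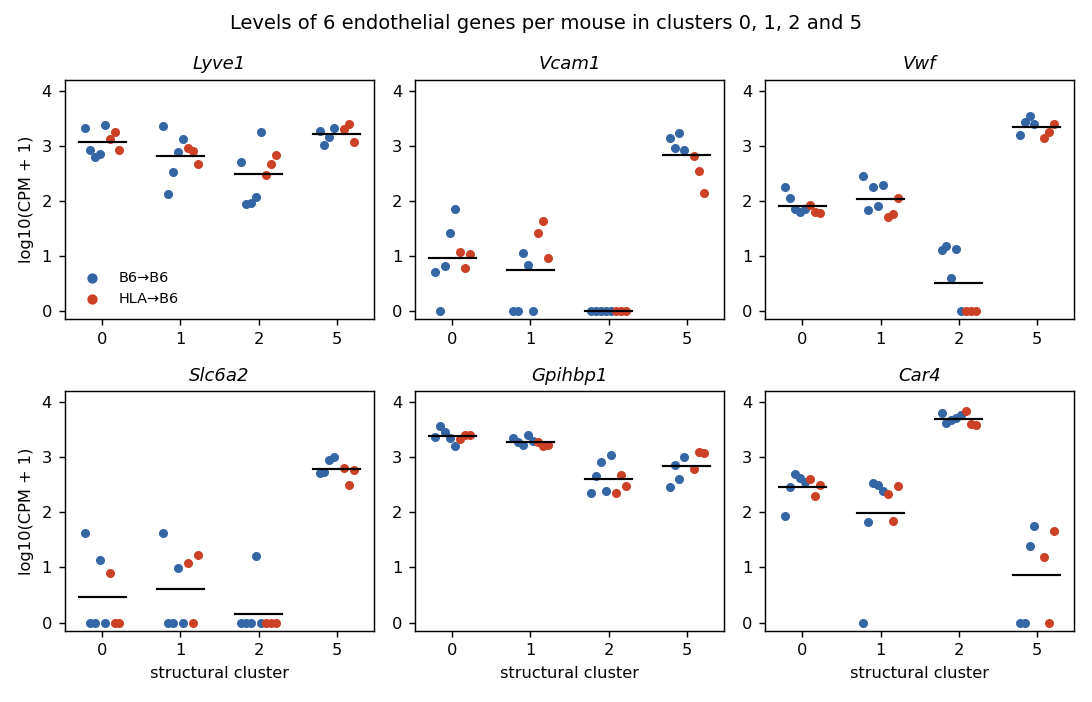
Levels of 6 genes in structural clusters 0, 1, 2 and 5, as log10(CPM + 1) on the vertical axis, with 1 point per mouse with at least 10 cells of the cluster (blue B6→B6, red HLA→B6) and a bar at the mean of the plotted values. Vcam1, Vwf and Slc6a2 lie above the other 3 clusters in every mouse, Lyve1 overlaps with cluster 0, and Car4 is highest in cluster 2.

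Of all 15987 genes detected in the 4 clusters, 22.3% were highest in cluster 5. By list, 13 of 14 venous genes were highest there, among them Vwf, Nr2f2, Slc6a2, Ephb4, Selp (P-selectin) and Ackr1, the chemokine-binding receptor of venules. Of 16 arterial genes 10 were highest there, among them Mgp, Ltbp4 and Gja5, the connexin 40 gene of arterial endothelium. Gja5 was found in only 8 of the 248 cells (3.23%), with 0 CPM in B6→B6 mice 1 and 4 and HLA→B6 mice 2 and 3. Ackr1 was found in 17 cells (6.85%) and was highest in B6→B6 mouse 2, at 611 CPM. By contrast, 1 of 10 general capillary genes and 0 of 11 aerocyte genes were highest in cluster 5. Gpihbp1, which holds lipoprotein lipase on capillaries, averaged 792 CPM in cluster 5 and 2626 CPM in cluster 0. Car4, a carbonic anhydrase of aerocytes, averaged 19.8 CPM against 5086 CPM in cluster 2. Tmem100, a BMP-induced capillary gene, averaged 825 CPM and was lower than in clusters 0, 1 and 2 in every mouse. The lowest ratios belonged to Dpp4 (2.3 CPM, 0.037 of the lowest other cluster), Rcsd1 (9.0 CPM) and Tppp3 (17 CPM), and 26 genes were lower in every mouse. The number of genes eligible for that last count was not taken. Clusters 1 and 2 bear the deposited name of epithelial cells, yet the pan-endothelial list summed to 13151 and 19883 CPM there, against 10680 CPM in cluster 5.

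Some genes on the lists of other cell types were at 0, and others were not. The fibroblast genes Pdgfra, Dcn and Lum, the epithelial genes Epcam, Cdh1 and Krt8, all 4 mesothelial genes, the B cell genes Cd79a and Ms4a1 and the macrophage genes Cd68, Adgre1 and Csf1r had 0 UMIs in the cluster. Other members were highest in cluster 5 among the 4 clusters. These included Col1a2 (fibroblast), Krt18 (epithelial), Marco and Mrc1 (macrophage), and Cd3e and Cd3g (T cell). They also included Tagln, Cspg4, Notch3 and Acta2 of 8 pericyte and smooth muscle genes and Pf4, Ppbp and Itga2b of 4 platelet genes. As means over the 7 mice, the T cell list summed to 54 CPM, the macrophage list to 39 CPM and the list of monocyte, neutrophil and other myeloid genes to 515 CPM. The platelet list summed to 118 CPM and was highest in B6→B6 mouse 2, at 543 CPM. The pericyte and smooth muscle list summed to 292 CPM, the epithelial list to 370 CPM and the erythroid list to 546 CPM, each with its highest sum in 1 mouse of the 7 (B6→B6 mouse 4 for the first 2, at 1010 and 1588 CPM, and HLA→B6 mouse 3 for the last, at 3789 CPM).

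The cells of the cluster differed in their balance of venous and arterial list genes. Leaving out Eln, which is on both lists, 212 of the 248 cells had more venous than arterial UMIs, 29 had more arterial and 7 had equal numbers. In the 29 cells Mgp, an inhibitor of calcification abundant in arteries, stood at 5974 CPM and Gja5 at 280 CPM, against 593 and 7.7 CPM in the other cells. Among venous list genes, Slc6a2 stood at 93.4 CPM in the 29 cells against 770 CPM and Vwf at 1284 against 2140 CPM, but Vcam1 was higher in the 29 cells, at 1634 against 775 CPM. All these genes are on the lists that made the split. Lyve1, on neither list, stood at 1027 CPM in the 29 cells and at 1963 CPM in the rest. The 29 cells came from 7 of the 8 mice, with 10 from HLA→B6 mouse 1 and 5 from B6→B6 mouse 3. Vcam1 UMIs were found in 69 of the 248 cells, or 27.8% (95% exact interval 22.3 to 33.8%, counting error only), against 5 of 5071 T cells (0.10%), at median depths of 1356 and 1648 UMIs. After thinning to 500 UMIs per cell, Mgp was found in 37.3% of the 67 deep enough cells with Vcam1 and in 14.7% of the 164 without it. These cells are pooled over all mice. Before thinning, Mgp was found in 18.5 to 57.1% of cells in B6→B6 mice 1 to 4 and 4.76 to 22.7% in HLA→B6 mice. Vcam1 was found in 27.3 to 50.0% and 21.4 to 23.8%. The pooled values cannot tell a difference among cells from one among mice or groups.

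The share of these cells in the graft was compared first. Of the structural cells, cluster 5 made up 8.36, 10.4, 3.09, 4.84 and 5.83% in B6→B6 mice 1 to 5 and 4.40, 3.02 and 3.69% in HLA→B6 mice 1 to 3. The means were 6.51% ± 2.91 (SD, n = 5) and 3.71% ± 0.694 (n = 3), with overlap of the groups. The difference of -2.81 percentage points did not pass an exact two-sided permutation test over the 56 splits of the mice (p = 0.143, adjusted over the 11 structural clusters p = 0.524), for which the smallest possible p is 0.0357. Within the linked libraries the difference was -4.28 points and within the others -1.28 points. Relative to clusters 0, 1, 2 and 5 together the shares were 8.77% ± 4.13 and 4.77% ± 1.16 (exact permutation p = 0.143), and of all cells 1.37% ± 0.858 and 1.04% ± 0.361 (exact permutation p = 0.786).

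**Figure D2:**
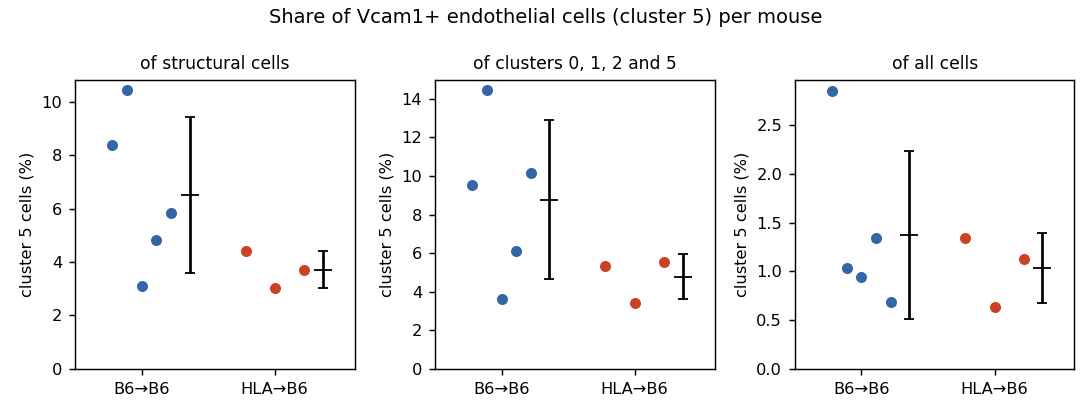
Share of cluster 5 among structural cells, among clusters 0, 1, 2 and 5, and among all cells, in percent, with 1 point per mouse and the mean with SD beside it. The groups overlap in all 3 panels, and the B6→B6 mice spread from 3.09 to 10.4% of structural cells.

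Levels of genes were compared next. In HLA→B6 grafts the Vcam1+ endothelial cells held more RNA of MHC class II and class I genes and of interferon-induced genes, and less of Vcam1, of the cytoskeletal gene Vim and of genes for ribosomal proteins. The test was edgeR's quasi-likelihood F test on UMIs summed per mouse, with p adjusted by the Benjamini-Hochberg method over all 721 genes that passed the filter on low counts and 0.05 as the threshold. Of the 721, 65 passed (9.02%), with 30 higher (4.16%) and 35 lower (4.85%) in HLA→B6, and the median log2 fold change of all tested genes was 0.06. The filter needs counts in as few mice as the smaller group has, so a gene present in the mice of 1 group alone could pass it. This favors a rise for a gene present in HLA→B6 mice alone and a fall for one present in B6→B6 mice alone. Without B6→B6 mouse 2 the calls were 19 higher and 8 lower, without HLA→B6 mouse 1 20 and 16, and without HLA→B6 mouse 2 16 and 10. The cells were clustered with both groups together, so a difference within the cluster also depends on which cells were put in it. The 2 groups were apart, with every HLA→B6 mouse above every B6→B6 mouse, for all 30 genes called higher, beside 9.71% of all tested genes, and apart below for 33 of the 35 called lower, beside 14.6%.

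**Figure D3:**
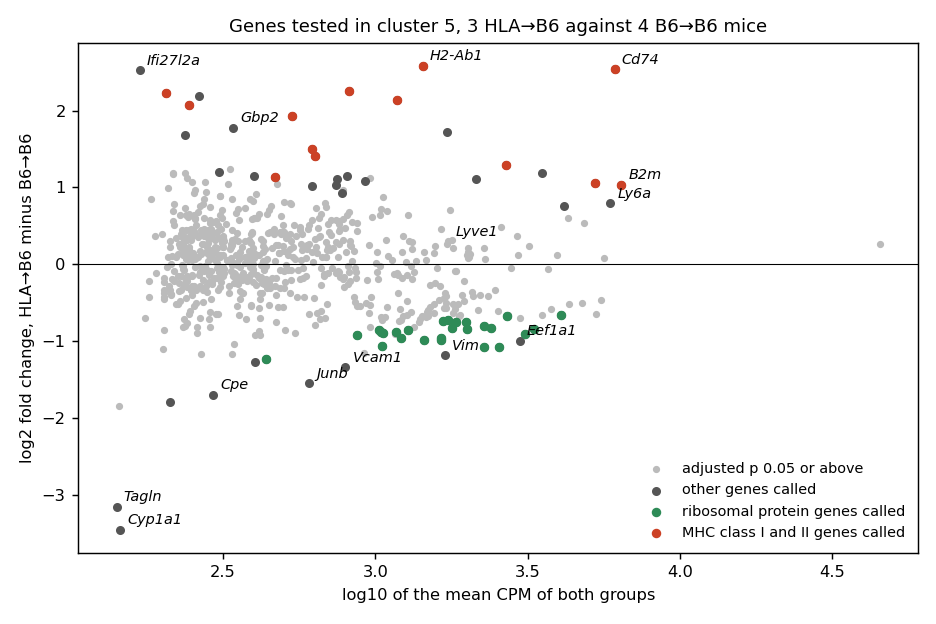
The 721 genes tested in cluster 5, with the log10 of the mean CPM of both groups on the horizontal axis and the log2 fold change of HLA→B6 (n = 3) over B6→B6 (n = 4) on the vertical axis. MHC genes called (red) lie above 1, and the ribosomal protein genes called (green) lie between -1.23 and -0.66.

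The MHC class II list had 7 members. Ciita, their transcriptional activator, did not pass the filter, at 0 to 24.0 CPM in B6→B6 mice 1 to 4 and 78.7 to 106 CPM in HLA→B6 mice, and all 6 that did rose, with log2 fold changes between 2.07 and 2.58 and a median of 2.24, beside 0.06 for all genes tested. H2-Ab1, the class II beta chain (chr17:34257689-34269419, plus strand), stood at 294, 543, 721 and 257 CPM in B6→B6 mice 1 to 4 and at 2212, 3330 and 1669 CPM in HLA→B6 mice 1 to 3. The lowest HLA→B6 mouse was thus above the highest B6→B6 mouse, and the log2 fold change was 2.58 (SE 0.34, adjusted p = 0.000689). B6→B6 mouse 5, whose 6 cells were not in the fit, had 126 CPM. Cd74, the invariant chain that guards the peptide groove, went from 1340, 2103, 2886 and 1313 CPM to 10257, 15551 and 5097 CPM (log2 fold change 2.54, SE 0.34, adjusted p = 0.000689). Cd74 UMIs were present in 11.1 to 65.5% of the cluster 5 cells of B6→B6 mice 1 to 4 and in 89.8 to 92.9% of those of the HLA→B6 mice. H2-Eb1, the second beta chain, stood at 220, 373, 433 and 230 CPM in B6→B6 and at 1403, 1594 and 992 CPM in HLA→B6 (log2 fold change 2.26). H2-Aa, the alpha chain, came closest to overlap, with 866 CPM in B6→B6 mouse 3 and 1037 CPM in HLA→B6 mouse 3 (log2 fold change 2.13, SE 0.38). H2-DMa and H2-DMb1, the chains of the peptide exchange factor, rose by log2 values of 2.22 and 2.07 from levels between 18.4 and 170 CPM. In the HLA→B6 mice both stood between 283 and 429 CPM. At these levels they could pass the filter on low counts only through the HLA→B6 mice. The filter thus favored their rise, and their place among the 6 adds no separate support.

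H2-Ab1, H2-Aa, H2-Eb1 and Cd74 were called in all 17 alternative settings of the fit. All 4 are also on the list of markers by which the study removed free RNA. Whether the deposited counts were made before or after that step is not known here, and its part in the result was not tested. In T cells, which lack MHC class II, the same deposited counts gave 0 to 36.1 CPM of H2-Ab1 and 0 to 106 CPM of Cd74 in the 8 mice. Macrophages and B cells carry MHC class II as well. The summed level of the 11 macrophage genes in cluster 5 was 0 to 18.4 CPM in B6→B6 mice 1 to 4 and 70.8 to 93.1 CPM in the HLA→B6 mice, with Cd68, Adgre1, Csf1r, Cd163 and Folr2 at 0. Marco and Mrc1 of that list had higher mean levels in cluster 5 than in clusters 0, 1 and 2. The 5 B cell genes summed to 0 to 18.4 CPM and 0 to 45.1 CPM, with Cd79a and Ms4a1 at 0, and the 5 pan-leukocyte genes to 0 to 110 CPM and 90.2 to 283 CPM. The part of such cells in the rise was not tested.

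The MHC class I list had 14 members, of which 10 were tested and 7 rose, beside 4.16% of all genes tested. The median log2 fold change over the 10 was 1.09, beside 0.06 for all genes tested. B2m, the shared light chain, stood at 4350, 5122, 4160 and 3911 CPM in B6→B6 mice and at 8418, 8324 and 8660 CPM in HLA→B6 mice. The spread within each group was small beside the gap between them, and the log2 fold change was 1.04 (SE 0.16, adjusted p = 0.00311). H2-K1 and H2-D1, the classical heavy chains of this strain, rose by 1.29 (SE 0.22) and 1.06 (SE 0.17). The nonclassical genes H2-Q4 (1.505), H2-Q6 (1.93), H2-Q7 (1.41) and H2-T23 (1.13) rose as well. Near-identical copies exist among the H2-K, H2-D and H2-Q genes, and the assignment of reads among them is uncertain. Of the members not called, Tapbp had a log2 fold change of 0.82 (adjusted p = 0.0512), Psmb8 of 1.05 (adjusted p = 0.0670) and Psmb10 of 0.20 (adjusted p = 0.787).

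**Figure D4:**
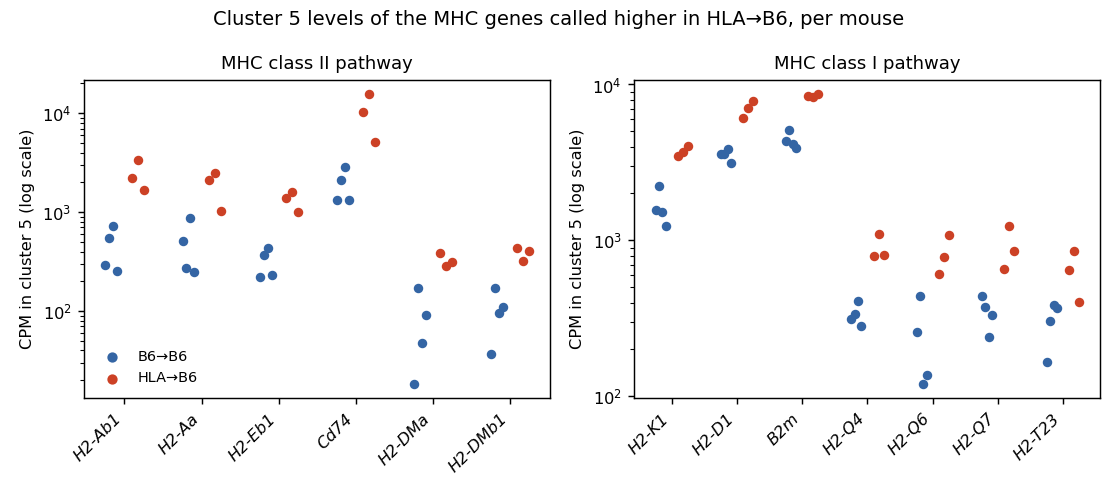
Levels in cluster 5 of the MHC class II (left) and class I (right) genes called higher in HLA→B6, in CPM on a log axis, with 1 point per mouse of the fit (blue 4 B6→B6, red 3 HLA→B6). Each HLA→B6 point lies above each B6→B6 point of the same gene.

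Because these genes rose together, their promoters are shown. Mouse class II genes, class I genes and B2m share an upstream module, called S, X and Y boxes, which CIITA or NLRC5 reads through bound factors, and NF-Y binds the Y box. Of the 13 MHC genes called higher, 11 had a RefSeq promoter sequence (GRCm38.p6), taken as the 250 bases before the start. Cd74 and H2-Ab1 were the others. The letters GATTGG, as in the Y box, were found on either strand in 9 of the 11, against 14.6% of all 32851 promoters of that length. TGATGA, a run of letters of the X box region of several of these genes, was found on either strand in 7, against 10.5% of promoters, and both runs in the same 7, against 1.41%. TTTCNNTT, letters of interferon-stimulated response elements, occurred on either strand in 8 of the 11, against 21.3%. These letters were chosen after the promoters had been read, they may overlap with other elements, and the class I genes are near copies of each other, so the counts are a description. In the 4 promoters that follow, capitals mark both runs on either strand. H2-Eb1 (chr17:34305617-34305866, plus strand), H2-DMb1 (chr17:34152941-34153190, plus strand) and H2-Aa (chr17:34287824-34288073, minus strand) stand for class II, and H2-D1 (chr17:35262844-35263093, plus strand) for class I.
H2-Eb1: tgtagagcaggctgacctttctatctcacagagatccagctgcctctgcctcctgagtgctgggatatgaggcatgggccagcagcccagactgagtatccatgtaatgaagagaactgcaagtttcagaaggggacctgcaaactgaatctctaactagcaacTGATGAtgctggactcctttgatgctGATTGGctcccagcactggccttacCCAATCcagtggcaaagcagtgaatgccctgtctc
H2-DMb1: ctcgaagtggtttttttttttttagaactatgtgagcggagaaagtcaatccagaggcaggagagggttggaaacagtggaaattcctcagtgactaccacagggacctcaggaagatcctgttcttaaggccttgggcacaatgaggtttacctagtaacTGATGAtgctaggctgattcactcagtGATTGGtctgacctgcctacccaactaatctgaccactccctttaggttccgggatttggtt
H2-Aa: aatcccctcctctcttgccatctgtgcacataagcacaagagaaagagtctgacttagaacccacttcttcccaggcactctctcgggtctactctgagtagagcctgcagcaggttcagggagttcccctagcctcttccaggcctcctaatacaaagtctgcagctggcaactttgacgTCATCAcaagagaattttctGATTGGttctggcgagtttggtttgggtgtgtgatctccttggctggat
H2-D1: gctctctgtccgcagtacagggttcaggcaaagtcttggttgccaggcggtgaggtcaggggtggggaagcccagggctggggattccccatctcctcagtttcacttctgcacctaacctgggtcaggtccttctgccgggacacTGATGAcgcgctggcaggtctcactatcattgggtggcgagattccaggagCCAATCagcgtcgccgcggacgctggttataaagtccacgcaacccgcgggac
In H2-Eb1 and H2-DMb1 TGATGA began 86 and 89 bases before the start and GATTGG followed at 60 and 62 bases. In H2-D1 the first began at 104 bases, and the second lay on the other strand with its first letter on the shown strand at 53 bases.

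Of the 26 interferon response genes 6 were tested, and 4 rose, beside 4.16% of all genes tested. Ifi27l2a, a small mitochondrial interferon-induced gene, had 0, 33.9, 24.0 and 91.8 CPM in B6→B6 mice 1 to 4 and 243, 248 and 406 CPM in the HLA→B6 mice (log2 fold change 2.52, SE 0.59, adjusted p = 0.0204). It was called in 6 of 17 alternatives and tested in 12 of them. The immunity-related GTPase gene Iigp1 rose by 2.19 (SE 0.46), the guanylate-binding protein gene Gbp2 by 1.78 (SE 0.45), and Bst2, tetherin, by 1.03 (SE 0.22). At their levels, Ifi27l2a and Iigp1 could pass the filter on low counts only through the HLA→B6 mice, which favored their rise. Gbp2, at 64.3 to 294 CPM in B6→B6 mice 1 to 4 and 316 to 779 CPM in the HLA→B6 mice, also needed the HLA→B6 mice to pass. The tested interferon genes not called, Ifitm3 and Ly6e, had log2 fold changes of 0.54 (adjusted p = 0.0512) and 0.60 (adjusted p = 0.0633). Psme2, the PA28 proteasome activator subunit and on none of these lists, rose by 1.196. Irf1, Cxcl9 and Cxcl10 were among the 20 that did not pass the filter in these small sums. Without HLA→B6 mouse 2, 1 of the interferon genes was called, without B6→B6 mouse 2 or mouse 4 the number was 2, and with DESeq2 it was 2.

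Among genes of leukocyte traffic, Vcam1 fell while Icam2 and Ackr3 rose. Of 7 tested, 2 were thus called higher and 1 lower, beside 4.16% and 4.85% of all genes tested. Vcam1 stood at 1395, 916, 1707 and 854 CPM in B6→B6 mice 1 to 4 and at 644, 354 and 135 CPM in HLA→B6 mice 1 to 3. The groups did not overlap, and Vcam1 fell by 1.34 on the log2 scale (SE 0.37, adjusted p = 0.0392). The call was kept in 10 of 17 alternatives (adjusted p up to 0.121), and B6→B6 mouse 5, not in the fit, stood at 252 CPM. Vcam1 UMIs were found in 27.3 to 50.0% of cells in B6→B6 mice 1 to 4 and in 21.4 to 23.8% of cells in the HLA→B6 mice. Ackr3, the scavenging receptor for CXCL12, rose by 1.11 (SE 0.28, adjusted p = 0.0252), and Icam2, a ligand of LFA-1, by 0.92 (SE 0.23). Ackr3 was called in 8 of 17 alternatives (adjusted p up to 0.486) and not without any 1 of B6→B6 mice 2, 3 and 4 or HLA→B6 mice 1 and 3. Icam2 was called in 9 of 17 (adjusted p up to 0.730) and not without any 1 of B6→B6 mice 2 and 3 or the HLA→B6 mice. The other 4 tested members of the list of 14, Icam1, Cd34, Jam2 and Podxl, had log2 fold changes between -0.06 and 0.27 and were not called.

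The venous genes other than Vcam1 were not called. Of 14 venous list genes 11 were tested, with a median log2 fold change of -0.29, and Vcam1 was the only call. Of all genes tested 9.02% were called, and 1 of 11 is near that share. Vwf stood at 1560, 2680, 3439 and 2534 CPM in B6→B6 mice and at 1374, 1807 and 2436 CPM in HLA→B6 mice (log2 fold change -0.40, SE 0.28, adjusted p = 0.422). Slc6a2 had a log2 fold change of -0.44 (adjusted p = 0.431), and Amigo2 of -1.17 (adjusted p = 0.0554). Of 16 arterial genes 4 were tested, and 0 were called. Mgp stood at 147, 1900, 1563 and 1900 CPM in B6→B6 mice and at 1009, 106 and 271 CPM in HLA→B6 mice (log2 fold change -1.15, SE 0.64, adjusted p = 0.286). B6→B6 mouse 1 was thus low among its group, and HLA→B6 mouse 1 high. Tmem100 had a log2 fold change of 0.24 (SE 0.36, adjusted p = 0.751).

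Several genes for surface proteins of endothelial cells rose, named here after their values were seen. Ly6c1, a GPI-anchored surface protein gene, stood at 2037, 1255, 3415 and 2258 CPM in B6→B6 mice and at 5812, 5172 and 3473 CPM in HLA→B6 mice (log2 fold change 1.19, SE 0.27, adjusted p = 0.0177). Ly6a (Sca-1) rose by 0.80, the tight junction gene Cldn5 by 1.104, the integrin gene Itga1 by 1.15 and the adhesion receptor gene Adgrf5 by 1.15. Cldn5 was called in 8 of 17 alternatives (adjusted p up to 0.350), and not without any 1 of B6→B6 mice 1, 2 and 4 or HLA→B6 mice 1 and 3. The other 4 were called in 11 to 13 of 17, and all 4 lost the call without HLA→B6 mouse 2. Ly6c1 and Ly6a also lost it without HLA→B6 mouse 1, Adgrf5 without HLA→B6 mouse 3, and Ly6a, Itga1 and Adgrf5 without B6→B6 mouse 2. Ly6c1 and Ly6a are 2 of the 6 called genes on the study's list of free RNA markers. They stood at 0 to 141 CPM (Ly6c1) and 45.6 to 762 CPM (Ly6a) in T cells. Of the 10 general capillary genes 5 were tested and 0 called (4 with a log2 fold change above 0, median 0.17), and the 10 summed to 0.448 to 0.598% of UMIs in B6→B6 mice 1 to 4 and to 0.517 to 0.681% in the HLA→B6 mice.

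Other falls had their own profiles. Cyp1a1, a target of the aryl hydrocarbon receptor (chr9:57687928-57703824, plus strand), stood at 257, 170, 313 and 294 CPM in B6→B6 mice and at 14.3, 35.4 and 45.1 CPM in HLA→B6 mice. With no overlap, it fell by 3.45 on the log2 scale (SE 0.57, adjusted p = 0.00328). It was called in 10 of 17 alternatives and tested in 12 of them. Cpe, carboxypeptidase E, stood at 422, 611, 409 and 523 CPM against 200, 0 and 90.2 CPM, and fell by 1.70 (SE 0.43). The immediate early gene Junb fell by 1.54 (SE 0.36), the only call among the 9 tested genes of the list for immediate early and dissociation stress. Of all genes tested, 9.02% were called. Vim, vimentin, fell by 1.18 (SE 0.27). Tagln, a smooth muscle actin-binding gene, fell by 3.15 (SE 0.75), but its groups overlapped, at 257, 34, 240 and 413 CPM against 14, 35 and 90 CPM. It is the only tested gene of the pericyte and smooth muscle list, whose sum was 33.9 to 1010 CPM in B6→B6 mice 1 to 4 and 90.2 to 150 CPM in HLA→B6 mice, and the part of such cells in the result was not tested. Tpm1 fell by 1.79 and overlapped as well. At their levels, Cyp1a1, Cpe and Tagln could pass the filter on low counts only through the B6→B6 mice, which favored their fall. Krt80 rose by 1.68, from 91.8 to 192 CPM in B6→B6 mice 1 to 4 to 271 to 425 CPM in the HLA→B6 mice. It was called in 9 of 17 alternatives and tested in 13 of them. At these levels it could pass the filter only through the HLA→B6 mice, which favored its rise. Gm42418, which overlaps ribosomal RNA sequence, rose by 1.72.

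Ribosomal protein genes made up 26 of the 35 falls. This grouping by gene symbol was made after the calls had been seen. Of 86 such genes, 83 were tested, all 83 had log2 fold changes below 0 (median -0.67), and 26 were called lower, beside 4.85% of all genes tested. Rps28 stood at 3726, 4240, 3343 and 2938 CPM in B6→B6 mice 1 to 4 and at 2033, 1382 and 1173 CPM in HLA→B6 mice, with no overlap (log2 fold change -1.08, SE 0.22, adjusted p = 0.0125). Rpl23 (-0.99), Rpl5 (-1.23) and Rpl8 (-1.06) fell in the same range. The elongation factor genes Eef1a1 (-0.99) and Eef1g (-1.27) fell with them. Summed, the 86 genes took 16.98, 18.9, 16.2 and 17.8% of the cluster 5 UMIs of B6→B6 mice 1 to 4 and 11.5, 10.5 and 8.53% of those of the HLA→B6 mice, and 13.3% in B6→B6 mouse 5. In clusters 0, 1 and 2 the groups overlapped in this share, at means of 6.52 and 7.42%, 12 and 12.3%, and 5.35 and 7.05% for B6→B6 and HLA→B6. Mitochondrial transcripts took 1.85 to 2.41% of cluster 5 UMIs in B6→B6 mice 1 to 4 and 2.18 to 2.73% in HLA→B6 mice. Of 8 tested 1 was called, mt-Co3 (higher by 0.76), beside 9.02% of all genes tested. The number of ribosomal calls moved with single libraries, to 4 without B6→B6 mouse 2, 5 without HLA→B6 mouse 2, 10 without HLA→B6 mouse 1 and 13 without HLA→B6 mouse 3, and was 4 with the linked libraries as a term. The log2 fold changes were below 0 for 81 or more of the 83 in all these fits.

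**Figure D5:**
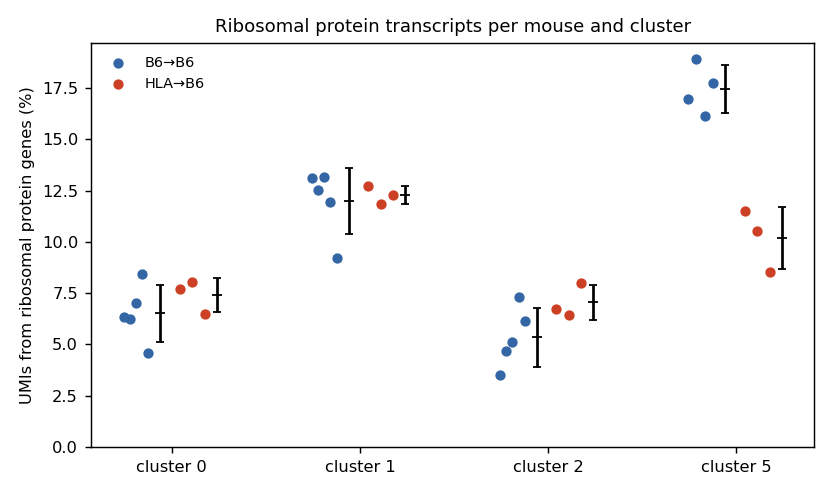
UMIs from 86 ribosomal protein genes as a percent of all UMIs of a cluster in a mouse, with 1 point per mouse with at least 10 cells (blue B6→B6, red HLA→B6) and the mean with SD beside it. In cluster 5 the HLA→B6 mice lie between 8.53 and 11.5% and the B6→B6 mice between 16.2 and 18.9%, and in clusters 0, 1 and 2 the groups overlap.

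Whether the Vcam1+ cells differed from the MHC II+ endothelial cells of cluster 0 in their response was tested as an interaction of cluster and group in the same 7 mice, each mouse being a block. Of 2325 genes 67 passed (2.88%), 4 with a more positive effect in cluster 5 (0.172%) and 63 with a more negative one (2.71%). H2-Ab1 had the larger rise in cluster 5, by 1.18 on the log2 scale (SE 0.29, adjusted p = 0.0121). In cluster 0 its B6→B6 level was already 525 to 1970 CPM in mice 1 to 4, and its HLA→B6 level 2828 to 3532 CPM. The other 6 class II genes had differences between 0.63 and 1.05 and were not called. None of 13 class I and none of 16 interferon genes tested was called, with medians of 0.34 and 0.17 beside 0.03 over all genes. Cldn5 (1.13), the semaphorin gene Sema3c (1.14) and Jund (1.104) were the other positive differences. For Cldn5 the level in cluster 0 was 5039 to 5872 CPM in B6→B6 mice 1 to 4 and 3567 to 5656 CPM in HLA→B6 mice, above that of cluster 5 in each mouse.

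Of the 63 more negative differences 43 were ribosomal protein genes, out of 84 tested (median difference -0.91), and Rpl10 (-1.91), Rpl5 (-1.68) and Eef1g (-1.60) were among the 6 largest. Another 7 were mitochondrial transcripts, out of 11 tested (median difference -1.12). In the fit of cluster 0 alone, all 11 mitochondrial transcripts had log2 fold changes above 0 (median 0.97), and 0 were called. In the fit of cluster 0 alone, 0 of 84 ribosomal protein genes were called in the 8 mice, with a median log2 fold change of 0.23, although 25 of 3645 genes were (0.686%), 22 higher (0.604%) and 3 lower (0.0823%). Cytl1 had a difference of -2.40 (SE 0.46), from 1248 to 2092 CPM in B6→B6 to 1553, 248 and 226 CPM in HLA→B6 within cluster 5, where its own change did not pass (adjusted p = 0.236), and from at most 41.4 CPM to at most 114 CPM in cluster 0. Without HLA→B6 mouse 2 the interaction left 0 positive and 8 negative calls, 4 of them ribosomal.

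Against clusters 1 and 2 fewer genes were called. With cluster 1, 19 of 2029 passed (0.936%), 3 with a more positive effect in cluster 5 (0.148%). The 16 others included 8 ribosomal protein genes, beside 0.789% of all genes, but 0 passed without B6→B6 mouse 4 (138 at an unadjusted p under 0.05), 2 without HLA→B6 mouse 2 and 11 without B6→B6 mouse 2 or HLA→B6 mouse 1, and DESeq2 called 63 with all 7 mice. None of 6 class II, 13 class I and 12 interferon genes differed from cluster 1 past the threshold. With cluster 2, 39 of 1689 passed (2.31%), 2 with a more positive effect (0.118%) and 37 with a more negative one (2.19%), 22 of them ribosomal protein genes. Without B6→B6 mouse 2 that total was 6, without B6→B6 mouse 3 it was 12, without HLA→B6 mouse 1 it was 24, without HLA→B6 mouse 2 or 3 it was 10, and without B6→B6 mouse 4 it was 59. Cd74, H2-Aa and H2-Eb1 were called there, with the smaller fitted rise in cluster 5, and H2-Ab1 was not (adjusted p = 0.147). Cd74 stood at 0 to 6.1 CPM there in the 5 mice, and at 896, 2929 and 419 CPM in the HLA→B6 mice, below cluster 5 in each of them. The size of a fitted difference from such a level depends on the prior count.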

How the data were processed

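Lung grafts of 8 mice were profiled by 10x 3′ single-cell RNA sequencing. Per the study's methods, reads were counted with Cell Ranger on mm10, cells were clustered in Seurat, and free RNA was treated with SoupX. The sources used here do not say whether the deposited counts precede that step. The authors deposited 1 table of UMI counts per gene and cell, not normalized, with cluster and sample columns. Cluster 5 was taken by its number. The cells, gene lists and ribosomal grouping were chosen with earlier results of these data known.

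Counts were summed per mouse and cluster, for mice with at least 10 cells. Replicates are separate mice. Sums were tested in edgeR 4.0.16 (quasi-likelihood F test, TMM, filterByExpr with a minimum count of 10) in R 4.3.3, with Benjamini-Hochberg adjustment and a threshold of 0.05, and DESeq2 1.42.0 as an alternative. Differences of effect between clusters were tested as an interaction with the mouse as a block. Shares were compared by an exact permutation test over mice. Cells were thinned to 500 UMIs for shares of cells with a UMI, and those intervals cover counting error only. Doublets were sought with Scrublet in scanpy 1.11.5. On simulated counts for the 721 genes of the cluster 5 comparison, 180 genes were changed 4-fold. Of these 94.4% were recovered, and 4.49% of calls were unchanged genes. For the differences of effect, 70%, 76% and 64% of 200 genes changed 4-fold were recovered against clusters 0, 1 and 2. Recovery of smaller changes, such as those of the ribosomal protein genes, was not measured.

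Some genes of these lists are not reported here. Named genes were the 15 highest and 10 lowest by identity ratio and the 12 largest rises and falls among calls with groups apart. The 6 largest differences of effect in each direction and members of the lists were named as well. Also named were genes such as Tmem100 and Lyve1, which the study text gives for the MHC II+ endothelial cells and not for the Vcam1+ cells. Promoters are RefSeq sequences of GRCm38.p6, and gene coordinates are GENCODE annotation of GRCm38. Alternatives were other filters, scalings, cell minimums, blocks, cell sets and leaving out each mouse.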

Additional observations from a re-analysis of the deposited data

Results flagged for a closer look

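In 2 of 28 groups of 4 or 5 mice tested, 1 mouse stood apart from the others in cluster 5, and chance alone gives about 1 in 20. They were Krt80 in B6→B6 mouse 3 (192 CPM) and Rpl8 in B6→B6 mouse 4 (2194 CPM).

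The effect of HLA→B6 against B6→B6 differed between cluster 5 and another cluster by the edgeR interaction test for the following genes, given as the difference of log2 fold changes, cluster 5 minus the other. Against cluster 0 these were H2-Ab1 (1.18), Sema3c (1.14), Cldn5 (1.13) and Jund (1.104) on the positive side. On the negative side were Apoe (-4.57), Plxna2 (-2.95), Cytl1 (-2.40), Rpl10 (-1.91), Rpl5 (-1.68) and Eef1g (-1.60). Against cluster 1 the positive differences were Mgll (3.06), Jun (1.27) and Malat1 (0.88). The negative ones were Ccl5 (-6.78), Apoe (-4.31), Sftpc (-4.25), Fabp5 (-3.27), Vcam1 (-3.13) and Gpx1 (-1.65). Against cluster 2 they were Cldn5 (1.59) and Txnip (1.51), and Cyp1a1 (-6.10), Cd74 (-6.01), H2-Aa (-5.87), Apoe (-5.17), Cytl1 (-4.78) and H2-Eb1 (-4.57). Where the other cluster had counts of 0 in most B6→B6 mice, as for Apoe, Ccl5, Cd74, H2-Aa and H2-Eb1, the size of the difference depends on the prior count.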

How the results depend on the processing

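In cluster 5, 20 genes were called with at least 20 cells per mouse (17 higher, 3 lower, 1 of them ribosomal), 30 with the linked libraries as a term (9 lower, 4 ribosomal), and 39 with no filter on low counts (17 lower, 2 ribosomal). With at least 5 cells, 20 were lower (16 ribosomal). With the replicate number as a block, 34 were called (18 higher, 16 lower, 11 ribosomal). The numbers did not pair the mice, since the correlations of same-numbered mice were -0.097, -0.062 and -0.0055. MHC class I calls were 1 with no filter and 4 with the replicate block. Interferon calls were 2 with DESeq2 and with the block, and 1 with at least 20 cells. In cluster 0 the calls were 12 with DESeq2, 38 with at least 20 cells, 115 with no filter and 64 with the block. Differences from cluster 0 numbered 22 with at least 20 cells. Those from cluster 1 numbered 63 with DESeq2, 6 with at least 5 cells and 11 without shared barcodes. Those from cluster 2 numbered 67 with DESeq2, 62 without doublets, 10 with at least 20 cells, 7 with at least 5 cells and 21 with no filter. In place of the 46 genes higher in every mouse, 535 were highest in cluster 5 with CPM pooled over cells, where agreement of every mouse was not required. This is not the count over all detected genes, of which 22.3% were highest there. Tmem100 had a log2 fold change of -0.14 with at least 20 cells and -0.21 with the linked libraries as a term. Except where fewer cells or genes entered, the cause was not tested.

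Leaving out 1 mouse at a time gave share differences of -3.66 to -1.82 points of structural cells, -5.29 to -2.59 of clusters 0, 1, 2 and 5, and -0.508 to 0.0316 of all cells, the last without B6→B6 mouse 1. Calls in cluster 5 ran from 26 to 69, with 16 to 30 higher and 8 to 42 lower, 4 to 34 ribosomal, 4 to 6 MHC class II, 5 to 7 MHC class I and 1 to 5 interferon genes. They ran from 2 to 52 in cluster 0, and differences ran from 8 to 89, 0 to 28 and 6 to 59 against clusters 0, 1 and 2. Over all alternatives, single genes of cluster 5 kept direction and call in 754 results and lost the call in 358. The depth of the sums, with 7 mice and down to 14 cells in a mouse, limits what can be called.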
